A study of Mus musculus with 10 samples.

Results

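The genes Eomes, Tbx21, Cdhr1, Doc2g, Shisa3, Omp and Barx2 were examined as a set of 7 olfactory bulb genes among the 25050 genes counted in whole mouse brain. Rows were taken by these gene symbols, and each symbol had 1 row. The set was put together with its wildtype and knockout levels in these same counts already known, so the levels below are a description and no p-value is given for a member. The libraries came from 5 wildtype animals (Abcc5+/+) and 5 Abcc5 knockout animals (Abcc5-/-), all of the FVB/NJ strain. The labels give no age, sex or drug treatment, and they call each sample a whole brain. Animals were killed with carbon dioxide and brains were frozen on dry ice, and polyadenylated RNA was sequenced.

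The olfactory bulb is the first relay of smell in the brain. Axons of olfactory sensory neurons leave the nose and end in its glomeruli, where they contact mitral and tufted cells. These excitatory cells are the projection neurons that carry the signal to the olfactory cortex, and granule and periglomerular interneurons inhibit them. Tbx21 (T-bet) and Eomes (Tbr2) are T-box transcription factors of mitral and tufted cells. Cdhr1 is a cadherin-related surface protein of the same cells and of retinal photoreceptors, and Doc2g belongs to the double C2 domain family. Shisa3 belongs to a family that holds Wnt and FGF receptors back in the endoplasmic reticulum. Omp, the olfactory marker protein, marks mature sensory neurons, so in the brain it points to their incoming axons and not to projection neurons. Barx2 is a Bar-class homeobox transcription factor.

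Total counts ran from 7731294 to 23588335 per library, and 14526 genes had enough counts to be tested. Levels are given as CPM, counts relative to library size after TMM scaling. The targeted gene Abcc5, which encodes an export pump, averaged 311.1 ± 12.6 CPM in the wildtype group and 218.8 ± 5.95 CPM in the knockout group (SD, 5 libraries each). Its groups did not overlap, since wildtype levels began at 299.2 CPM and knockout levels ended at 226.2 CPM. Knockout replicate 3 stood apart from its label of whole brain. Its summed level of 12 cerebellar genes was 155.01 CPM, against 1391 to 1661 CPM in the other 9 libraries. The labels number the brains without further detail, so p-values measure the spread between these samples. How much of the olfactory bulb came out with each brain is not described.

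The promoters of 3 of the genes are shown because Cdhr1 and Doc2g had the most similar levels over the libraries while Eomes departed from them, as described below. The sequences come from RefSeq on GRCm38.p6 and span 300 bases around the start site. Capitals mark the T-box core GTGTGA on either strand in the Doc2g sequence, and TATAA on either strand in the Eomes and Cdhr1 sequences. Eomes lies at chr9:118477939-118478238 (plus strand), Cdhr1 at chr14:37098298-37098597 (minus strand) and Doc2g at chr19:4003135-4003434 (plus strand).
Eomes: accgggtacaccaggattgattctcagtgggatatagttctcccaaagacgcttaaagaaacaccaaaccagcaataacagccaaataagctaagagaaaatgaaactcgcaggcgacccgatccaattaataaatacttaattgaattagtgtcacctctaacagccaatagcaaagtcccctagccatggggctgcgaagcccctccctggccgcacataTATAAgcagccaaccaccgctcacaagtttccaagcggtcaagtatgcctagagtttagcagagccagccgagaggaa
Cdhr1: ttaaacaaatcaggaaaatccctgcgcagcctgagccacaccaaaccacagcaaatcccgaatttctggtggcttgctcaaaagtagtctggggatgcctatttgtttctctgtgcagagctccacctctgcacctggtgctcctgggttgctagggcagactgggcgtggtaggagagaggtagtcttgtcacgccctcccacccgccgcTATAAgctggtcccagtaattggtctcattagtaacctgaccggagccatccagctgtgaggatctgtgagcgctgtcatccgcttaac
Doc2g: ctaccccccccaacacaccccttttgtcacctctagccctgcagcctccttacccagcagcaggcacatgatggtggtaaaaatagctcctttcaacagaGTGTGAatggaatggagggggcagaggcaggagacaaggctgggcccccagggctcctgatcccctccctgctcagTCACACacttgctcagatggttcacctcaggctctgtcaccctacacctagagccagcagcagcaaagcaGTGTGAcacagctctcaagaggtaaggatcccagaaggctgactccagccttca

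Promoter sequences were matched for 5 of the 7 genes, namely Eomes, Tbx21, Cdhr1, Doc2g and Shisa3. The core GTGTGA was searched on both strands and occurred only in Doc2g among these 5, at 3 places whose first bases lie 150, 74 and 4 bases before the start site. At least 1 such match was present in 14.5% of the 32851 promoters of this length, and 3 or more in 0.152%. The longer T-box site GGTGTGA, which contains the core, was in 3.98% of all promoters and in none of the 5. TATAA was in 24.9% of all promoters and in those of Eomes and Cdhr1, with its first base 28 and 39 bases before the start site. The palindromic Ebf site, searched by its consensus, was in 0.904% of all promoters and in none of the 5.

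Gene positions below are those the authors deposited; their build is unnamed and is not GRCm38.p6. Eomes spans chromosome 9 from 118387330 to 118395250. Barx2 spans chromosome 9 from 31653682 to 31721047, and Tbx21 chromosome 11 from 96959385 to 96976645. Cdhr1 spans chromosome 14 from 37891036 to 37911497, and Doc2g chromosome 19 from 4003321 to 4007005. Shisa3 spans chromosome 5 from 67999122 to 68014791, and Omp chromosome 7 from 105291870 to 105294012. Omp lies inside Capn5, a calpain protease gene. Nudt8 overlaps Doc2g from the start of its span to 4005816, and Atp8a1 overlaps Shisa3 from 68009379 to the end of its span. Whether counting used strand is not given, so reads of overlapping genes may not be cleanly parted. Levels of the overlapping genes in knockout replicates 1 and 2 were 102.1% and 108.9% of the wildtype mean for Capn5. They were 94.7% and 107.3% for Nudt8 and 104.9% and 101.2% for Atp8a1.

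Most of the bulb genes were far lower in knockout replicates 1 and 2 than in any other brain. Knockout replicates 3, 4 and 5 had wildtype-like levels of Cdhr1, Doc2g, Shisa3, Omp and Tbx21, between 79.3% and 177.0% of the wildtype mean. Eomes was below its wildtype range in those brains too, at 44.5%, 47.3% and 77.7% of its wildtype mean in knockout replicates 3, 4 and 5. Barx2 showed no such split. In 6 of the 7 genes, knockout replicates 1 and 2 were the lowest pair of the 10 libraries. That order was seen in 3.08% of the 14526 tested genes, and it is one of the values by which the genes were chosen.

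**Figure D1:**
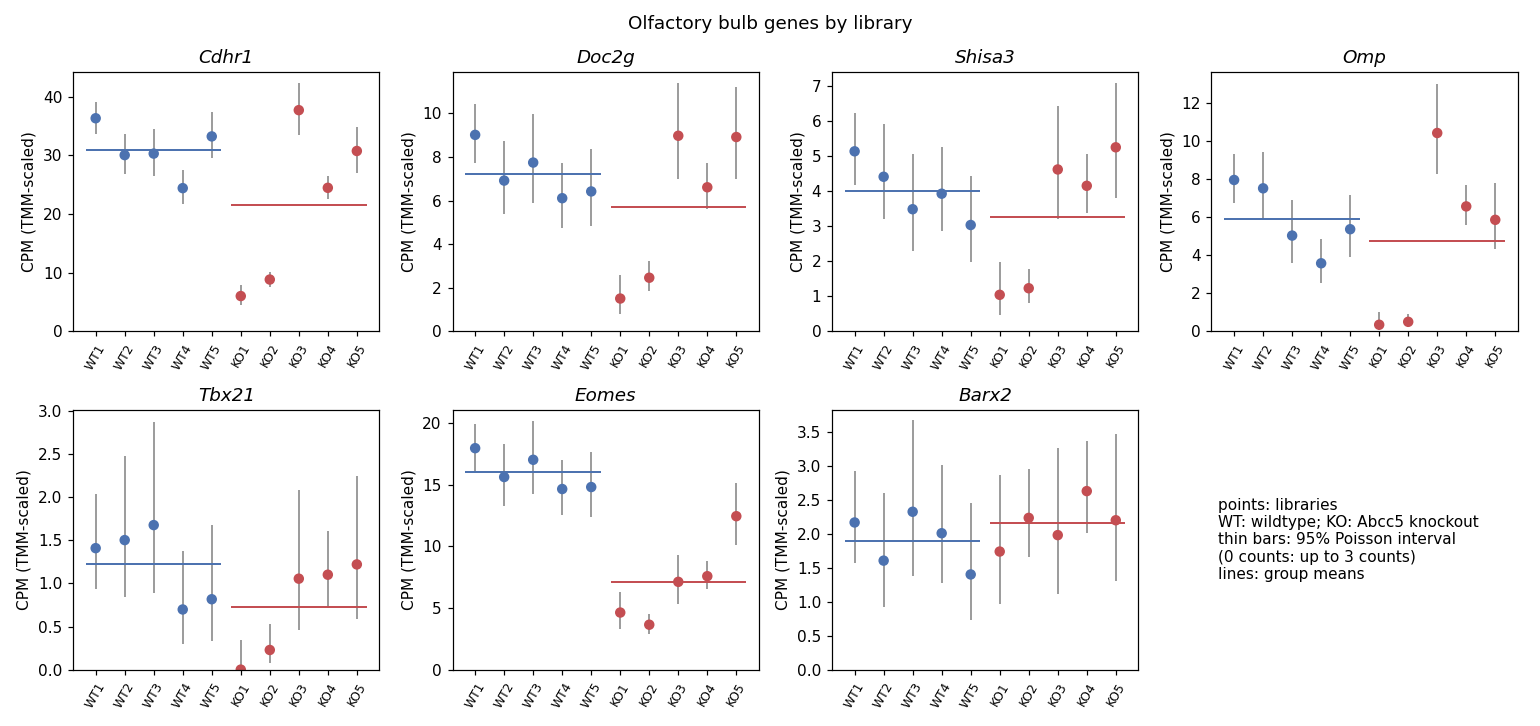
Level of each of the 7 genes (CPM, TMM-scaled, vertical axis from 0) in the 5 wildtype (WT) and 5 Abcc5 knockout (KO) libraries. Thin bars are 95% exact Poisson intervals of the counts (for a count of 0, up to 3 counts) and lines are group means. KO1 and KO2 lie below all other libraries in every gene except Barx2.

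The surface and secretory genes come first. Cdhr1 had 36.3, 30.1, 30.3, 24.4 and 33.3 CPM in wildtype replicates 1 to 5, and 6.02, 8.84, 37.7, 24.5 and 30.8 CPM in knockout replicates 1 to 5. Its level in knockout replicates 1 and 2 was 19.5% and 28.6% of the wildtype mean, while the other 3 knockouts overlapped the wildtype range. The group means were 30.9 ± 4.42 and 21.6 ± 13.8 CPM (SD, n = 5 each), a log2 fold change of -0.59 (SE 0.33). The SD within the knockout group, 63.8% of its mean, exceeded the difference between the group means.

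Doc2g, whose relatives Doc2a and Doc2b bind calcium at nerve endings, followed Cdhr1 closely. Its wildtype levels were 9.01, 6.91, 7.74, 6.11 and 6.42 CPM, and its knockout levels were 1.51, 2.46, 8.97, 6.61 and 8.91 CPM. Again knockout replicates 1 and 2 lay below the wildtype range and the other 3 within it. The log2 fold change was -0.46 (SE 0.32). Shisa3 had 5.13, 4.41, 3.48, 3.93 and 3.03 CPM in wildtype and 1.04, 1.23, 4.62, 4.15 and 5.25 CPM in knockout libraries. Knockout replicate 5 was the highest of all 10 libraries for Shisa3, and knockout replicate 1, with 9 counts, the lowest. Its log2 fold change was -0.43 (SE 0.34).

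Omp showed the widest range of the set relative to its wildtype mean. Its wildtype levels were 7.95, 7.52, 5.03, 3.58 and 5.37 CPM, and its knockout levels were 0.347, 0.501, 10.4, 6.57 and 5.86 CPM. Knockout replicate 1 had 3 Omp counts (95% exact Poisson interval 0.0716 to 1.02 CPM) and knockout replicate 2 had 11 counts (0.25 to 0.897 CPM), so both intervals lie below all wildtype levels. Such intervals cover counting error only. Knockout replicate 3 held the highest Omp level, 177.0% of the wildtype mean. In that library the median of 12 forebrain excitatory neuron genes was 134.05%, and that of the 12 cerebellar genes 11.6%. The part of this shift in the member levels of knockout replicate 3 was not tested. The log2 fold change between the groups was -0.48 (SE 0.52).

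Among the transcription factors, Tbx21 was scarce, with 5 to 28 counts in 9 libraries and none in knockout replicate 1. Its wildtype levels were 1.41, 1.503, 1.68, 0.698 and 0.817 CPM, and its knockout levels were 0, 0.228, 1.06, 1.10 and 1.22 CPM. A count of 0 in knockout replicate 1 allows up to 0.347 CPM. Knockout replicates 3, 4 and 5 lay within the wildtype range. The log2 fold change was -0.80 (SE 0.46), a value fitted to low counts. It was -0.78 by DESeq2 and -1.34 by limma-voom.

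Eomes was the only member whose groups did not overlap. Its wildtype levels were 18.0, 15.6, 17.03, 14.7 and 14.8 CPM, and its knockout levels were 4.63, 3.64, 7.12, 7.58 and 12.5 CPM. The group means were 16.02 ± 1.44 and 7.09 ± 3.42 CPM (SD, n = 5 each), a log2 fold change of -1.27 (SE 0.22). By edgeR's quasi-likelihood test, 1 of the 7 members, Eomes, was called at an adjusted p of 0.05, where 1.18% of all tested genes were called (0.964% lower in knockout). Every knockout library lay below every wildtype library for Eomes, as for 2.64% of tested genes. No member had every knockout library above every wildtype library, an order seen in 1.54% of tested genes. The members were chosen on this contrast, so nothing is read from these counts.

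Unlike the other bulb genes, Eomes was low in knockout brains with full levels of Cdhr1. Knockout replicate 3 had 44.5% of the wildtype mean of Eomes with 122.2% of that of Cdhr1, and knockout replicate 4 had 47.3% with 79.3%. The ratio of Eomes to Cdhr1 CPM was 0.446 to 0.60 in wildtype, 0.769 and 0.412 in knockout replicates 1 and 2, and 0.189, 0.31 and 0.405 in knockout replicates 3 to 5. With knockout replicates 1 and 2 left out, a choice made after seeing the data, the log2 fold change of Eomes was -0.88. Without knockout replicate 3 it was -1.29.

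**Figure D2:**
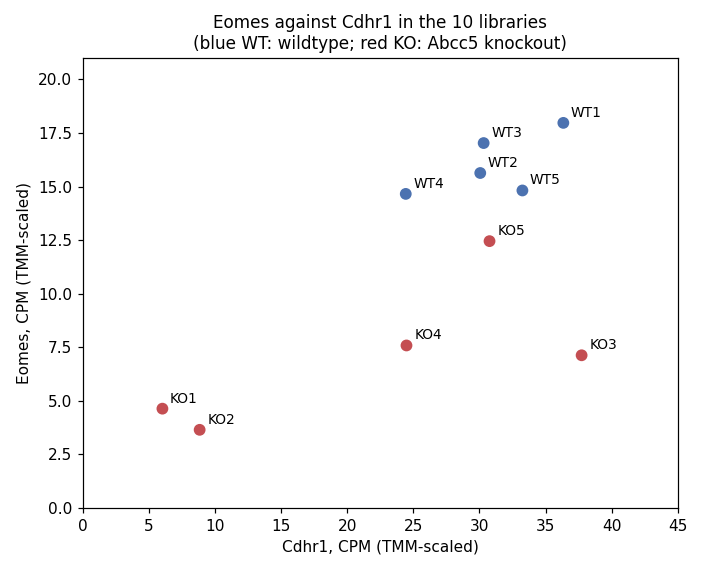
Eomes level against Cdhr1 level (CPM, TMM-scaled) in the 10 libraries, blue for wildtype and red for Abcc5 knockout. KO1 and KO2 are low for both genes, while KO3 and KO4 pair wildtype-like Cdhr1 with Eomes of 7.12 and 7.58 CPM, below the lowest wildtype library at 14.7 CPM.

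Eomes is also used by unipolar brush cells of the cerebellum and, with Tbx21, by T and NK cells. The median level of the 12 cerebellar genes was 11.6% of the wildtype mean in knockout replicate 3, and 98.2% to 112.0% in the other 4 knockouts. Of the 6 unipolar brush cell genes, which other cells also express, Lmx1a had 1.71 CPM in knockout replicate 3 and 1.52 to 2.70 CPM in wildtype. The part of the low cerebellar signal in the Eomes level of that library was not tested. In knockout replicate 4, with 112.0% of the cerebellar median, Eomes was at 47.3% of its wildtype mean. Of the 12 T and NK cell genes, the T cell receptor genes Cd3e and Cd3d had at most 3 and 2 counts in any library and Cd8a at most 2, while Cd4, which microglia and macrophages can also express, had up to 159. The 12 genes summed to 6.42 to 7.68 CPM in wildtype and 5.46 to 9.76 CPM in knockout libraries, and Cd4 made up nearly all of it, with means of 6.71 and 7.17 CPM. Photoreceptor genes, which bear on Cdhr1, were also near 0 for Crx and Prph2, with at most 3 and 2 counts.

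Barx2 departed from the rest of the set. Its wildtype levels were 2.16, 1.60, 2.32, 2.01 and 1.40 CPM, and its knockout levels were 1.74, 2.23, 1.98, 2.63 and 2.20 CPM. The groups overlapped, and knockout replicates 1 and 2 lay inside the wildtype range. The log2 fold change was 0.21 (SE 0.17). These counts of 12 to 62 did not show the pattern of the other members, and Barx2 did not vary with the other 6 genes (r from -0.17 to 0.21 over 6 pairs and 10 libraries).

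Levels were compared between genes per kilobase of exon, with exon lengths from GENCODE M21. In wildtype brains Cdhr1 was the most abundant, at 7.13 ± 1.02 CPM per kb, followed by Eomes at 3.86 ± 0.35 and Omp at 2.75 ± 0.85 CPM per kb. Doc2g had 2.38 ± 0.38, Barx2 0.965 ± 0.20, Shisa3 0.841 ± 0.17 and Tbx21 0.491 ± 0.18 CPM per kb (SD, n = 5 each). Eomes and Omp, Omp and Doc2g, and Barx2 and Shisa3 were neighbours whose ranges of mean ± SD overlapped, and the other neighbours were farther apart than that.

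**Figure D3:**
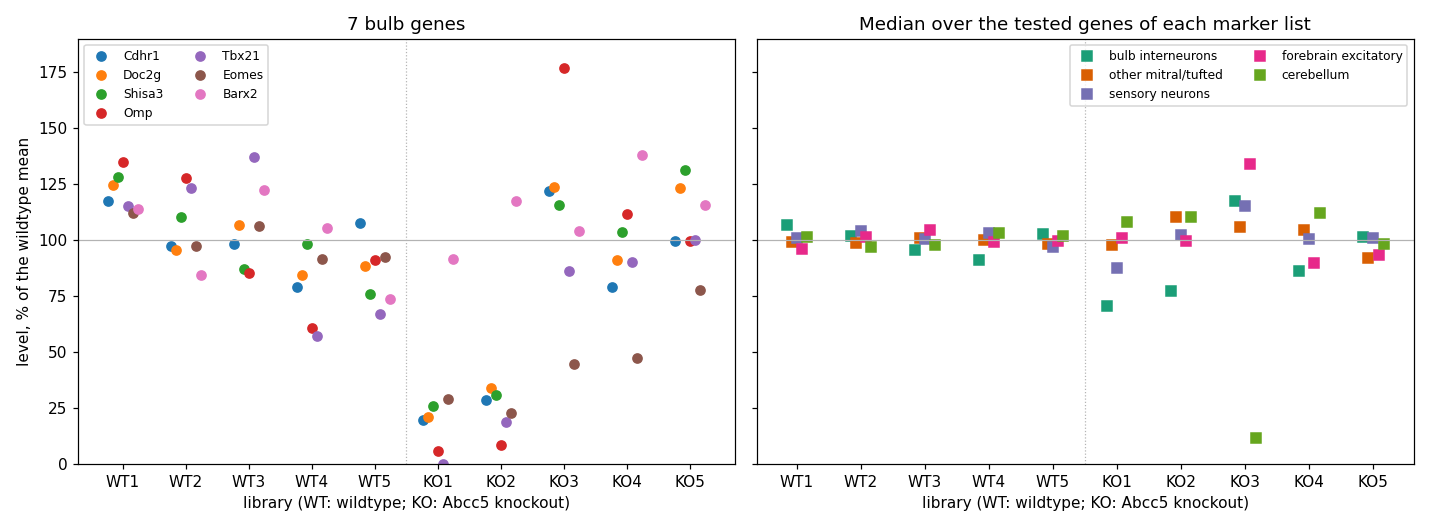
Left, level of each of the 7 genes as a percent of its wildtype mean, by library. Right, the median of that percent over the tested genes of 5 marker lists. KO1 and KO2 are low for the bulb genes except Barx2 and, less far, for the median of bulb interneuron genes (70.5% and 77.1%). KO3 is low for cerebellar genes (11.6%).

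The median log2 fold change of the 7 members was -0.48, against 0.0042 over all tested genes. It rested on few libraries. It was -0.28 without knockout replicate 1, -0.19 without knockout replicate 2, 0.088 without both, and -0.83 without knockout replicate 3. Without wildtype replicate 1 it was -0.31, but over 6 members, since Tbx21 was not tested there. With knockout replicates 1 and 2 both left out, Cdhr1 had -0.037, Doc2g 0.088, Shisa3 0.13, Omp 0.28 and Tbx21 -0.13 on the log2 scale. Since these are bulk samples, fewer cells of a type and less RNA per cell cannot be told apart. How much bulb tissue knockout replicates 1 and 2 held is not recorded, and its part in the low member levels of these libraries was not tested.

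Lists of other olfactory genes, of cell types and brain regions outside the bulb, and of relatives of the members were set beside these levels. Of 160 genes on the 13 lists, 155 were matched in the table and 117 were tested. By edgeR none of the 117 was called, while 13 had an unadjusted p under 0.05 (8 lower and 5 higher), a share of 11.1% against 14.8% of all tested genes (8.03% lower and 6.74% higher). DESeq2 and limma-voom each called 1, Fabp7. Bulb interneuron genes leaned the same way as the members in knockout replicates 1 and 2. Their median was 70.5% and 77.1% of the wildtype mean in these libraries, and 117.4%, 86.4% and 101.2% in knockout replicates 3, 4 and 5. In 11 of the 20 interneuron genes these 2 libraries were the lowest pair, a share of 55.0% against 3.08% of all tested genes.

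Those 11 genes, chosen for naming after their values were seen, include Th and the homeobox gene Dlx1. Th is the rate-limiting enzyme of dopamine synthesis in periglomerular cells. Both genes, and others of this list, are also expressed outside the bulb. Th was at 69.2% and 68.8% of the wildtype mean in knockout replicates 1 and 2, and Dlx1 at 52.6% and 59.0%. The zinc finger gene Sp8, needed for bulb interneurons, was at 42.04% and 39.1%. Scgn (secretagogin, a calcium sensor) had the smallest p of the list, with 2.34 ± 0.75 and 1.52 ± 0.94 CPM in wildtype and knockout, with a log2 difference of -0.85 (edgeR adjusted p 0.272). The transcription factor gene Pbx3 differed by -0.23 on that scale (edgeR adjusted p 0.334). Etv1, the most abundant gene of the list, differed by -0.24 (edgeR adjusted p 0.391). Etv1 was at 95.1% and 84.8% of the wildtype mean in knockout replicates 1 and 2, and lowest in knockout replicate 3, at 50.4%. Calb2, also expressed widely outside the bulb and named after its values were seen, was at 98.5% and 106.6%. Ddc, Vip and Pax6, also named after their values were seen, were outside the 11 too. In knockout replicates 1 and 2 Ddc was at 104.7% and 114.8%, Vip at 122.1% and 104.4%, and Pax6 at 96.3% and 97.0%. Pax6 was lowest in knockout replicate 3, at 42.7%. The list median was -0.22, and 18 of 20 fitted values were below 0.

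Sensory neuron genes were mixed, with a list median of 0.0041 and none of 13 called. In 3 of the 13, knockout replicates 1 and 2 were the lowest pair, a share of 23.1% against 3.08% of all tested genes. S100a5, a calcium-binding protein of sensory neurons, had no count in knockout replicate 1, which allows up to 0.347 CPM, and was at 1.82% of its wildtype mean of 2.502 CPM in knockout replicate 2. The membrane protein gene Stoml3, chosen for naming after its values were seen, was at 23.1% and 36.3% in these libraries. It was scarce, and was also at 40.6% in wildtype replicate 4 and 40.6% in knockout replicate 5. By contrast Gnal, the olfactory G protein subunit that the striatum also makes, was at 108.9% and 103.9% of 270.9 CPM. Ric8b had the smallest p of this list (log2 fold change -0.16, edgeR adjusted p 0.234). The cyclic nucleotide channel gene Cnga2 had at most 6 counts and Rtp2 at most 5, so their difference was not detectable at this depth. Support cells of the nasal epithelium were near 0, with at most 6 counts of Cyp2g1 and of Ugt2a1 in any library, and Krt18 was the only tested gene (log2 fold change -0.21).

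The other genes described in mitral and tufted cells did not share the pattern. Knockout replicates 1 and 2 had 98.1% and 110.3% of the wildtype mean as the median of 15 genes. These libraries were the lowest pair for 1 gene, a share of 6.67% against 3.08% of all tested genes. That gene was Nrp1, a semaphorin receptor (log2 fold change -0.17, edgeR adjusted p 0.271). The vesicular glutamate transporter gene Slc17a7, abundant in all of the cortex, had 695.2 ± 18.7 and 733.4 ± 66.0 CPM in wildtype and knockout (edgeR adjusted p 0.54). The peptide gene Cck had a log2 fold change of 0.12, and the list median was 0.039. Many of these genes are expressed widely outside the bulb.

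Neighbouring lists gave small medians. Migrating neuroblasts had -0.071. Knockout replicates 1 and 2 were the lowest pair in 2 of these 12 genes, a share of 16.7% against 3.08% of all tested genes. Igfbpl1 had the smallest p of this list (log2 fold change -0.55, edgeR adjusted p 0.115). Cd24a had -0.11 and the abundant tubulin gene Tubb3 0.088. Olfactory ensheathing glia had -0.095, and Fabp7, a fatty acid binding protein of immature and ensheathing glia, had -0.38 (edgeR adjusted p 0.0587). Of the same list, the neuropeptide gene Npy had 0.23 (edgeR adjusted p 0.214). Forebrain excitatory neurons had a median of 0.0067, and their summed level was 3720 CPM in knockout replicate 3 against 2661 to 2943 CPM in the other libraries. The kinase gene Camk2a had 0.15 (edgeR adjusted p 0.323) and the homeobox gene Emx1 0.26 (edgeR adjusted p 0.343). The medians were -0.12 for the cerebellar list and -0.082 for the unipolar brush cell list. Neurod1, Zic1 and Cbln3 of the cerebellar list had -0.35, -0.28 and -0.021, and Otx2 and Plcb4 of the unipolar brush cell list -0.29 and -0.094. Among relatives of the members, the T-box family had a median of -0.031 and the list of Doc2, synaptotagmin and Shisa relatives 0.0075. Tbx1 had 0.59 (edgeR adjusted p 0.322) and Mga -0.10. Shisa2 had -0.36 (edgeR adjusted p 0.162), Shisa4 0.16 (edgeR adjusted p 0.198) and Syt1 0.0075. The only tested genes of the T and NK cell and photoreceptor lists, Cd4 and Sag, had 0.019 and 0.31. None of these genes passed the threshold.

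The 8 tested genes outside the set whose levels were most like the members' were S100a5, Frmd7, Ms4a15, Lgr5, Hs3st3b1, 4833420G17Rik, Daam1 and Ptpn14. Likeness was Pearson's r of log2 CPM with the mean of the standardised member levels over 10 libraries, which ran from 0.927 to 0.967, with Spearman's rho from 0.624 to 0.794. These are descriptions of genes picked for that value, so no p is given. The libraries fall apart into knockout replicates 1 and 2 and the rest, and over the other 8 libraries r was 0.366 to 0.70 and rho 0.452 to 0.81. Among Cdhr1, Doc2g, Shisa3, Omp, Tbx21 and Eomes, r over those 8 libraries ran from -0.45 to 0.72 over 15 pairs. The median was 0.331, so their closeness as a group rested mainly on knockout replicates 1 and 2. All pairs with r below 0 included Eomes. Over the 8 libraries Cdhr1 had an r of 0.723 with Doc2g, 0.679 with Omp and 0.225 with Shisa3.

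Frmd7, a FERM domain gene whose human counterpart is mutated in congenital nystagmus, had 13.5, 11.4, 7.87, 7.15 and 10.5 CPM in wildtype and 0.811, 1.32, 13.3, 6.86 and 11.7 CPM in knockout libraries. Ms4a15, of the membrane-spanning 4A family, was at 2.78% and 1.09% of the wildtype mean in knockout replicates 1 and 2. These 2 genes and S100a5 were at smaller shares there than Cdhr1, at 19.5% and 28.6%, a difference not tested. Lgr5, a receptor for R-spondins known from stem cells and also made by bulb neurons, was at 56.6% and 57.4%. Hs3st3b1, a heparan sulfate sulfotransferase gene, was at 35.3% and 64.2%, and the phosphatase gene Ptpn14 at 67.97% and 71.2%. Daam1, a formin of the actin skeleton, was at 87.9% and 88.2%, and 4833420G17Rik at 84.9% and 83.5%. None of the 8 genes was called.

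**Figure D4:**
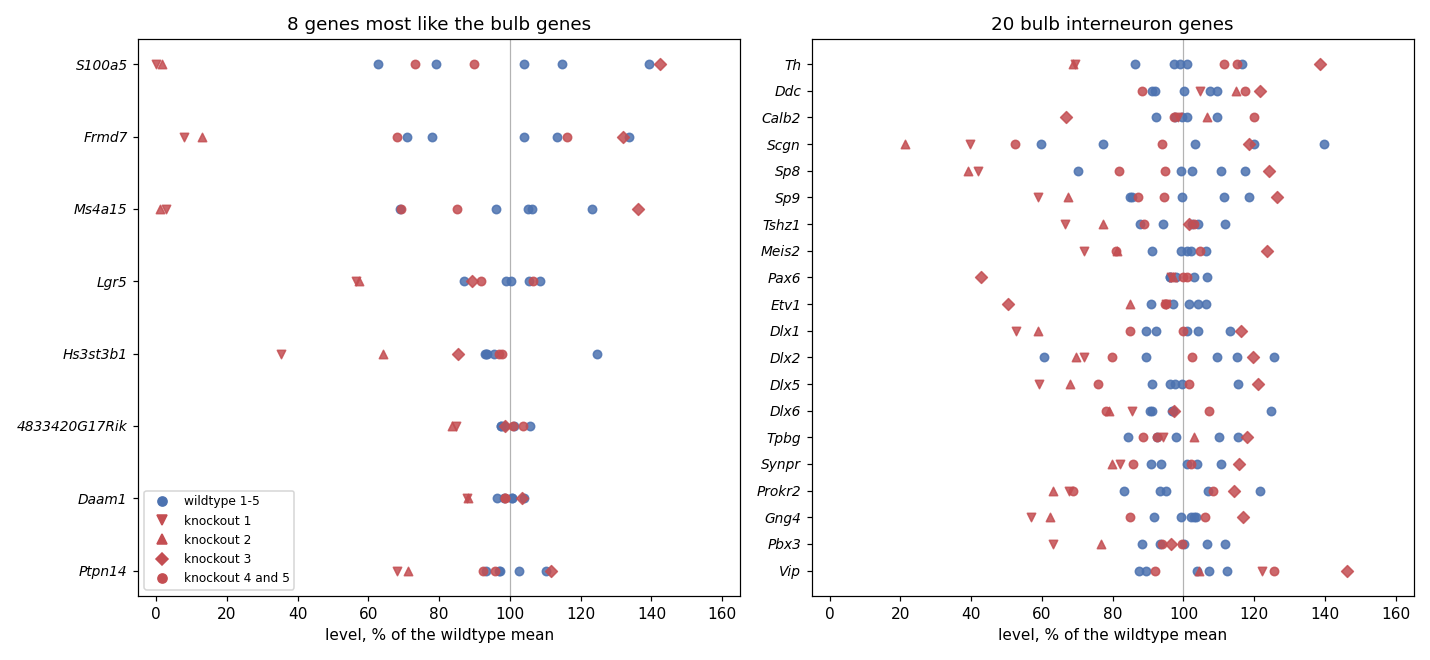
Level of each gene in each library as a percent of its wildtype mean, for the 8 genes most like the bulb genes (left) and for 20 bulb interneuron genes (right). Downward and upward triangles are knockout replicates 1 and 2, diamonds knockout replicate 3, and circles all other libraries. The triangles lie left of all other points in the 8 genes on the left and in 11 of the 20 on the right.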

How the data were processed

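RNA from 10 whole mouse brains was sequenced. The authors deposited raw counts per Ensembl gene and library, and per the submitters' processing notes TopHat2 2.0.6, HTSeq, edgeR and limma were used. The role of each tool, the genome build and the strand setting are not given in the sources used here. A further 10 value columns with damaged decimal points were not used.

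The counts as deposited went into edgeR 4.0.16 (R 4.3.3). Its filterByExpr function removed low genes, with 10 as minimum count and 15 as minimum total, and TMM gave the scaling. Genotype was the sole term of a quasi-likelihood fit on 14526 genes, whose p-values received the Benjamini-Hochberg adjustment together (threshold 0.05). A prior count of 2 entered log2 CPM, and each SE is the fold change over the root of its F statistic. Total counts per library, 7731294 to 23588335, set the precision of low genes. Exon lengths came from GENCODE M21. The method was tested on simulated data. Alternatives, among them other scalings, filters, a replicate block and libraries left out, included limma-voom (limma 3.58.1) and DESeq2 1.42.0.

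The members and the lists were chosen with earlier results of these data known. Besides the 7 members and Abcc5, genes were named by a rule: the 8 most like the members, and per list the called genes or, with none called, those with the 2 smallest p-values and the most abundant gene. Named outside this rule, after their values were seen, were Th, Dlx1, Sp8, Calb2, Ddc, Vip, Pax6, Stoml3, Lmx1a, Cnga2 and Rtp2. So were Crx, Prph2, Cd3e, Cd3d, Cd8a, Cyp2g1, Ugt2a1 and the genes overlapping members. Not every gene that the rule picks is reported here. The lists were those for mitral and tufted cells, bulb interneurons, neuroblasts, sensory neurons, epithelial support cells, ensheathing glia, forebrain neurons, cerebellum, unipolar brush cells, T and NK cells, photoreceptors, and the T-box and the Doc2 and Shisa relatives.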

Additional observations from a re-analysis of the deposited data

Results flagged for a closer look

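Of 56 groups of 5 libraries examined for a single library far from the others, 4 passed the critical gap of 0.71 of the range, and chance alone flags about 1 in 20. In 3 of them the library was knockout replicate 3. Its summed cerebellar level was 155.01 CPM, where the other knockouts had 1470.0 to 1661 CPM. Its summed level of unipolar brush cell genes was 214.8 CPM, where the other knockouts had 348.8 to 375.3 CPM. Its summed level of forebrain excitatory neuron genes was 3720 CPM, where the other knockouts had 2738 to 2943 CPM. The remaining flag was Hs3st3b1 in wildtype replicate 1, at 3.27 CPM against 2.44 to 2.51 CPM in the other wildtypes. Knockout replicates 1 and 2 were not flagged for any member, because a pair of low libraries leaves no gap to a nearest neighbour.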

How the results depend on the processing

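Over 18 alternatives Eomes had a log2 fold change from -1.50 to -0.88, and Barx2 stayed above 0 at 0.10 to 0.298. Eomes was the only member called in each of them. The members were chosen on this contrast, so nothing is read from these calls. Tbx21 was below 0 in all 16 alternatives that tested it, and Cdhr1 in 18 of 18. Doc2g, Shisa3 and Omp were below 0 in 17 of 18, the exception being the removal of both knockout replicates 1 and 2. The members' median ran from -0.83 to -0.19 with 1 library left out, and was -0.92 by limma-voom and 0.088 without knockout replicates 1 and 2. The count of all called genes, 171, was 259 by DESeq2's Wald test and 62 without knockout replicates 1 and 2, an alternative chosen after seeing the data. With 1 library left out it was 76 to 112 without wildtype replicate 2, 3, 4 or 5 or knockout replicate 1, 2 or 4, and 341 without knockout replicate 3. With the replicate number as a block it was 90, and the numbers did not pair the samples (correlations of deviations from -0.14 to 0.089). The count of called list genes, 0, was 1 (Fabp7) without a low-count filter, by DESeq2 and by limma-voom, and 0 to 4 with 1 library left out (4 without knockout replicate 3: Cbln3, Fabp7, Igfbpl1 and Nrp1). Of the 8 most alike genes, 5 remained with deviations from the group means and 5 without knockout replicate 1. The causes were not tested. Depth left 117 of 155 list genes testable, among them 1 of 12 T and NK cell genes, and Tbx21 had at most 28 counts in a library.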
